A study of Drosophila melanogaster with 3 samples.

Results

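The 9 genes described here are the proneural basic helix-loop-helix (bHLH) genes of Drosophila melanogaster and their dimer partners, taken by name from a list of symbols. The group comprised 7 tissue-restricted proneural genes, ac, sc, l(1)sc, ase, ato, cato and amos, and 2 broadly expressed partners, da and emc, of 13945 protein-coding genes on 6 chromosome arms. Chromatin immunoprecipitation and sequencing (ChIP-seq) recorded where Phol was bound in whole embryos aged 0 to 16 hours, with males and females pooled. All embryos were from a transgenic line with green fluorescent protein (GFP) at the C terminus of Phol, and the antibody recognised GFP. The 3 biological replicates form a single group with no second genotype or stage, and the promoter that drives the transgene is not given in the sources used here. The labels do not say whether separate embryo collections were used, so every SD given is the spread between these samples, which may be technical.

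Phol is a zinc-finger protein that binds the same core sequence as its paralog Pho, the DNA-binding component of Polycomb group complexes. Proneural proteins give ectodermal cells the ability to become neural precursors. They bind E-box DNA as heterodimers with Daughterless (Da), and Extramacrochaetae (Emc), which lacks a basic region, titrates both kinds of protein away from DNA. In whole embryos, weak binding in many cells and strong binding in few cells cannot be told apart, and gene expression was not measured.

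The authors deposited 5 peak lists. The 3 replicate lists and a list from the pooled replicates hold 30000 peaks each, and a reproducible list holds the strongest 10264 peaks of the pooled list. A gene's summits are those inside it or within 10 kb of it, and a gene was called occupied where a summit lay within 500 bp of one of its starts. Peak strength is given as the rank of the deposited signal value within a list, with rank 1 the strongest. For a replicate it is also given as a percentile, the rank as a percent of 30000, so that a low percentile is a strong peak. Read depth is unknown from these lists.

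The sequences printed here are on the plus strand of the RefSeq release 6 genome. They are examples from the strongest summits of ase, da and emc and from a neighbouring promoter. The strongest summit near a proneural gene, at reproducible rank 303 near amos, is not among them. Capitals mark the words TATCGA or TATCGATA, or, in the short stretch downstream of the da start, the reverse complement of GCCATNTT, the extended site of Pho and Phol. The ase sequence, chrX:457949-458049, is centred on the summit upstream of ase. That of emc, chr3L:762475-762575, is centred on the strongest summit in its window. For da, chr2L:10388044-10388104 ends at the base before the da start, and chr2L:10388109-10388134 lies in the 5′ UTR. The last, chr2L:10380014-10380102, lies at the start of gny, a neighbour of da. Of the reproducible summits at the neighbours of da, that of gny alone had TATCGA close to it.
ase upstream summit: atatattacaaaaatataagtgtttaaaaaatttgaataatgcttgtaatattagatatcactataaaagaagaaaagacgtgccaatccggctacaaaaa
emc downstream summit: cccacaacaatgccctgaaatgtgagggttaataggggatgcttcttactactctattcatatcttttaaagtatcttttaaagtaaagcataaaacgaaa
da start, upstream: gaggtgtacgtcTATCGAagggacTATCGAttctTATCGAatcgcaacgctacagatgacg
da start, downstream: aagagaacaAAGATGGCgatcccgag
gny start: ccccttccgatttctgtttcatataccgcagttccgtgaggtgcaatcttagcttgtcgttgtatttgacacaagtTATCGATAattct

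No proneural gene had a reproducible Phol peak at its start, whereas da had one of the strongest peaks in the genome there and emc had 6 peaks that were all away from starts. Occupied genes numbered 0 of 7 proneural genes and 1 of 2 partners, against 40.8% of all protein-coding genes. Within 10 kb, the 7 proneural genes had 7 reproducible summits in all, with a median of 1 and a range of 0 to 3. The partners had 12, with 6 each. The median over all genes was 3 and the quartiles were 1 and 4. At least 1 reproducible summit was present near 5 of 7 proneural genes and both partners, and near 80.3% of all genes. A count of 6 or more, as at da and emc, was reached by 14.1% of all genes.

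Gene length differed between the classes. The proneural genes span 712 to 2430 bp, and da and emc span 5124 and 4093 bp. Among the 6294 genes of the proneural genes' length range, 35.3% were occupied and the median was 2 reproducible summits. Among the 704 genes of 4093 to 5124 bp, 58.5% were occupied and the median was 3. The part of gene length in the difference between the classes was not tested.

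**Figure D1:**
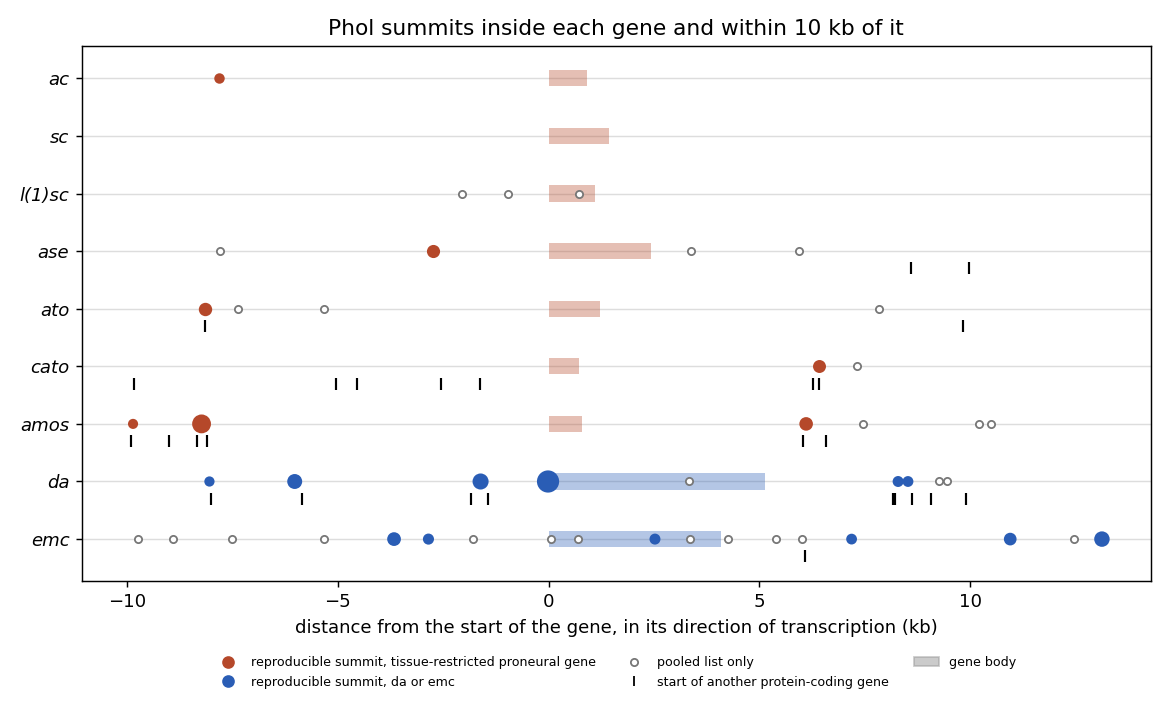
Reproducible and weaker pooled summits around the 9 genes, plotted by distance from the start of each gene in kb along its own direction of transcription, with larger filled points for stronger peaks and ticks for the starts of other protein-coding genes. The nearest reproducible summit to a start lay 11 bp away at da, and 2748 bp away at ase, the closest of the proneural genes.

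The daughterless gene encodes the broadly expressed bHLH partner of the proneural proteins (FBgn0267821, chr2L:10388105-10393228, plus strand). Its start peak, chr2L:10387729-10388583, had its summit 11 bp upstream of the annotated start. It ranked 28 in replicate 1, 42 in replicate 2 and 56 in replicate 3, which correspond to percentiles of 0.0933, 0.14 and 0.187 with a mean of 0.14 ± 0.0467 (SD, n = 3). All 3 replicates thus placed it in the top 1% of their lists. In the reproducible list it ranked 42 of 10264, and 55 protein-coding genes, da among them, had a start peak of that rank or stronger, which is 0.394% of all genes.

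The other 5 reproducible summits near da each lay within 500 bp of the start of another gene, so that all 6 summits in its window were at gene starts. The strongest of them, 1611 bp upstream of da and 168 bp from the start of mRpS7, a mitochondrial ribosomal protein gene, lies between mRpS7 and Cdk1, which encodes a mitotic cyclin-dependent kinase. Its percentiles were 4.58, 3.44 and 4.31. The next, 177 bp from the start of CG5096, had percentiles of 5.76, 7.46 and 6.27. Next in order upstream of da was gny, with a summit 39 bp from its start and percentiles of 28.7, 28.2 and 36.5. Downstream of da, the starts of Mdh1, a malate dehydrogenase gene, and Cnot4 carried summits of reproducible rank 7683 and 7941. The nearest replicate summits had percentiles of 26.4, 19.4 and 45.3 at Mdh1 and 26.7, 19.3 and 55.8 at Cnot4, in replicates 1, 2 and 3. They lie so close together that the stronger of both was taken for either one in replicates 1 and 2 when the strongest summit within 250 bp was used. At gny, Mdh1 and Cnot4 replicate 3 was the weakest of the 3 replicates. Its strongest 10264 peaks held 3 summits near da, and those of replicates 1 and 2 held 6 each.

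By mean absolute difference in percentile over the 3 replicates, among 5569 genes with a start peak found in every replicate, the start peak most like that of da was at Taf4, which encodes a subunit of the general transcription factor TFIID. Taf4 had percentiles of 0.123, 0.157 and 0.167, a mean difference of 0.0222 percentile points. The next was a peak shared by Chro, which encodes a chromodomain protein of interphase chromosomes and the spindle, and Ssl1, which encodes a subunit of TFIIH, at a difference of 0.0256.

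The extramacrochaetae gene (FBgn0000575, chr3L:749400-753492, plus strand) lies within the larger gene hng3, which is transcribed from the other strand. None of its 6 reproducible summits was closer than 500 bp to any gene start. Only 2.05% of all genes had 6 or more reproducible summits of that kind in their window, and 44.2% had at least 1. The strongest, at chr3L:762368-762670, lay 13125 bp downstream of the emc start and 7036 bp from a start of hng3, the nearest protein-coding start. It had percentiles of 4.55, 5.60 and 5.48, with a mean of 5.21 ± 0.572 (SD, n = 3). The second, 3663 bp upstream of the start in an intron of hng3, had percentiles of 10.5, 11.9 and 9.64. The third, 10950 bp downstream of the emc start and 4861 bp from that same hng3 start, had percentiles of 14.7, 16.9 and 15.1. The last 3 lay 2847 bp upstream, 2525 bp downstream, in an intron of emc, and 7188 bp downstream of the emc start. Their means were 26.7 ± 9.33, 27.8 ± 5.03 and 27.9 ± 4.06. For the summit 7188 bp downstream, and for the third, the nearest protein-coding start was also that of hng3, which lay 1099 bp from the former.

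At the emc start itself there was a weak peak, absent from the reproducible list. Its summit lay 49 bp from the start, ranked 14773 in the pooled list and had percentiles of 42.8, 47.6 and 59.3. With the pooled list, 0 of 7 proneural genes and both partners were therefore occupied, against 55.4% of all genes. The pooled window of emc held 18 summits, and 4.89% of all genes had as many or more. Pooled summits lay near 6 of 7 proneural genes and both partners, against 86.2% of all genes.

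**Figure D2:**
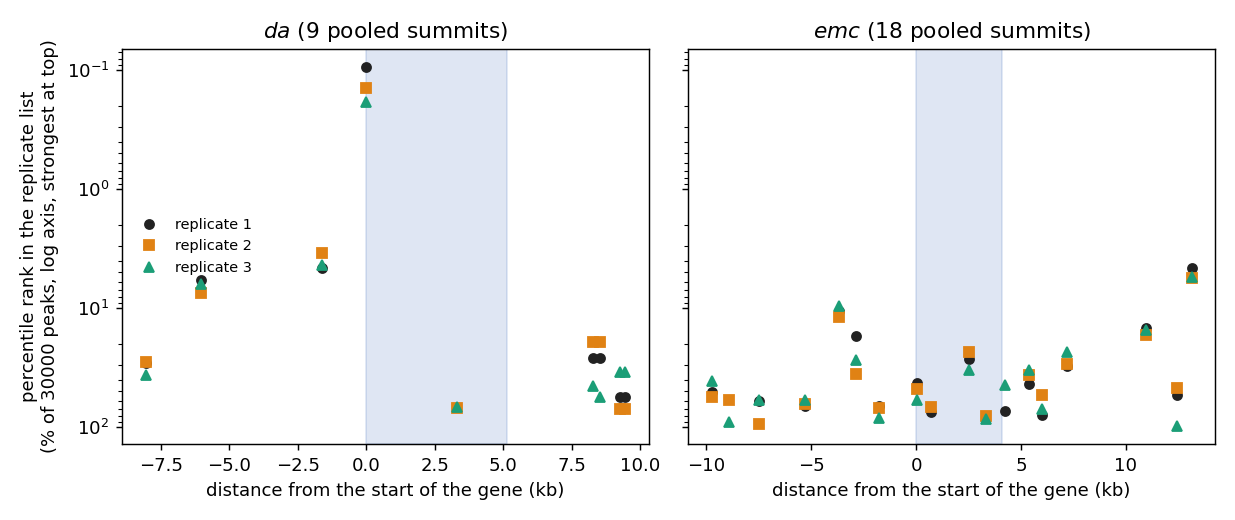
Percentile rank, on a log axis, of the 9 pooled summits near da and the 18 near emc in the 3 replicate lists, by distance in kb from the start of the gene. Shading marks the gene, and a summit without a match in a replicate has no point for it. The da start peak lies below 0.2% in all 3 replicates.

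The achaete-scute complex on X holds ac, sc, l(1)sc and ase, which encode related activators. The achaete and scute proteins act in external sensory organs, l(1)sc acts in the formation of central neuroblasts, and ase is expressed in neural precursors once these are selected. From 10 kb upstream of yellow (y) to 10 kb past the end of ase, chrX:346509-473176, there were 2 reproducible summits in 127.0 kb. This is 0.158 per 10 kb, against 0.831 per 10 kb over all of X, a ratio of 0.19. The full lists were less sparse there: replicates 1, 2 and 3 had 11, 13 and 15 summits in this region, or 0.868, 1.03 and 1.18 per 10 kb, against 2.46, 2.45 and 2.41 per 10 kb over X. The region was thus below the X average in every list, with the lowest ratio in the reproducible list. The 2 reproducible summits were 95.8 kb apart, and ac, sc and l(1)sc lie between them. A gap of this length or longer was seen for 171 of 10258 neighbouring pairs of reproducible summits (1.67%), and the median gap was 4.72 kb. The annotated gene CG32816 spans the whole complex on the minus strand, so most of these summits fall in its introns.

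For ase (FBgn0000137, chrX:460747-463176), the reproducible peak at chrX:457895-458046 had its summit 2748 bp upstream of the start. Its percentiles were 16.6, 14.3 and 10.2 in replicates 1, 2 and 3, with a mean of 13.7 ± 3.20 (SD, n = 3). It was the single reproducible summit near a proneural gene that had no start of any gene within 500 bp, against all 6 near emc. A weaker pooled summit 946 bp past the 3′ end of ase also occurred in all 3 replicates, with percentiles of 41.0, 51.8 and 52.6.

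The one reproducible summit in the ac window (ac is FBgn0000022, chrX:370031-370947) lay 7808 bp upstream of ac, at chrX:362013-362432. It was 176 bp from the start of lncRNA:yar, a noncoding RNA gene between y and ac. With percentiles of 25.8, 30.8 and 35.2 it was the weakest of the best summits of the 5 proneural genes that had any, with a mean of 30.6 ± 4.71. For sc (FBgn0004170, chrX:396060-397497) no summit occurred in the reproducible list, the pooled list or the lists of replicates 1 and 2. Replicate 3 alone had 2 summits in the sc window, and neither lay within 250 bp of a summit of the other replicates. The nearest reproducible summit was 33837 bp from the sc start.

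For l(1)sc (FBgn0002561, chrX:409721-410817) the pooled list had 3 summits and the reproducible list none. One pooled summit, 961 bp upstream of the start, was found in all 3 replicates at percentiles of 52.2, 71.7 and 72.7. The strongest, 2046 bp upstream, had percentiles of 36.0 and 49.6 in replicates 1 and 2, and no summit of replicate 3 lay within 250 bp of it. The third, in the coding exon, was found in 0 of 3 replicates. All 3 ranked below 10264 in the pooled list, so none is reproducible. Replicate 3 had a stronger summit 4784 bp downstream of the start, at a percentile of 28.8, with no counterpart within 250 bp in the other replicates.

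**Figure D3:**
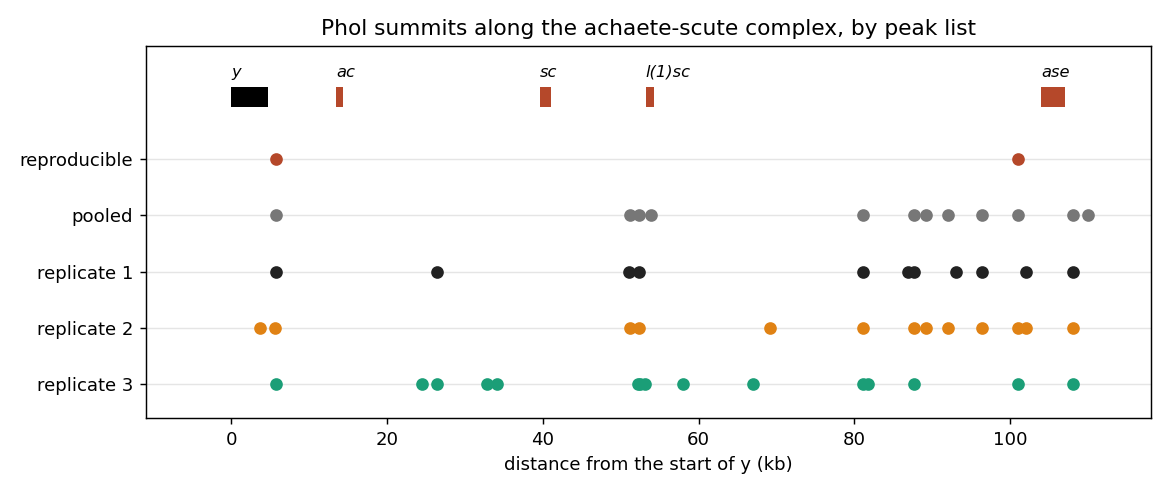
Summits along the achaete-scute complex in each of the 5 lists, by distance in kb from the start of y, with gene positions drawn to scale. The reproducible list has 2 summits, upstream of ac and of ase, and sc and l(1)sc lie in the 95.8 kb between them.

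The 3 proneural genes of the atonal group lie on other chromosomes, and their reproducible summits were all at the starts of neighbouring genes. The atonal gene (FBgn0010433, chr3R:8278052-8279274), which specifies chordotonal organs and the founder photoreceptor R8, had 1 reproducible summit. It lay 8157 bp upstream of ato and 1 bp from the start of CG9630, with percentiles of 9.90, 9.76 and 15.5 and a mean of 11.7 ± 3.27 (SD, n = 3). The cousin of atonal, cato (FBgn0024249, chr2R:16277685-16278396, minus strand), which acts in sensory neuron development, had 1 summit, 6414 bp downstream of its start. That summit was 11 bp from the start of Khc, the kinesin heavy chain gene, and had percentiles of 12.0, 15.1 and 14.0. For both genes the nearest reproducible summit was thus over 5 kb away and at the start of another gene.

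The amos gene (FBgn0003270, chr2L:18596136-18596921, minus strand), which specifies olfactory sensilla and multidendritic neurons, had 3 reproducible summits, the most of any proneural gene. The strongest, chr2L:18604914-18605358, was 8228 bp upstream of amos and 100 bp from the start of CG10413. Its percentiles were 1.08, 0.98 and 1.04, with a mean of 1.03 ± 0.0501, and it was the strongest summit near any proneural gene. The second lay 80 bp from the start of CG15160 at percentiles of 6.84, 8.87 and 26.3, a wider spread with replicate 3 the weakest. The third lay 58 bp from the start of CG10333 at percentiles of 20.9, 42.8 and 41.9. In all, 6 of 7 reproducible summits near proneural genes and 6 of 12 near the partners were within 500 bp of some gene's start, against 49.5% of all 10264 reproducible summits. With so few summits, these shares are a description. The proneural windows held the starts of 16 other protein-coding genes and the partner windows those of 7, with 6 near da and 1 near emc.

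The split between the classes was similar in the replicate lists. Among the strongest 10264 peaks of replicates 1, 2 and 3, the proneural genes had 7, 7 and 6 summits, and the partners had 12, 11 and 10. At this length 0 of 7 proneural genes were occupied in each replicate and da alone of the partners was, against 43.0%, 41.5% and 37.0% of all genes. With all 30000 peaks, 0, 0 and 2 of 7 proneural genes and both partners in every replicate were occupied, against 56.5%, 56.0% and 54.5% of all genes. The 2 proneural genes were l(1)sc and ato in replicate 3 alone. The summit at l(1)sc, 114 bp from the start, had a percentile of 95.2, and that at ato, 38 bp from the start, had 43.5. Neither lay within 250 bp of a summit of another replicate, whereas 82.7% of all replicate 3 summits did.

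The best reproducible summit of each gene was compared in percentile rank between proneural genes and partners, within the replicates. Those of ato, cato, amos and ac lay at the starts of CG9630, Khc, CG10413 and lncRNA:yar, over 5 kb from the named gene. The best emc summit lay 9033 bp past the end of emc. The differences therefore do not measure Phol at the proneural genes themselves, nor at emc itself. The ac, ase, ato and cato windows held 1 reproducible summit each, that of amos 3, and those of da and emc 6 each. The best of 6 was thus often set against a single summit. A positive difference means a weaker peak near the proneural gene. The ase summit was 13.5 ± 3.24 percentile points weaker than the da start peak and 8.48 ± 3.63 points weaker than the best emc summit (SD of the difference, n = 3). The ato summit was 11.6 ± 3.23 points weaker than that of da and 6.51 ± 3.09 points weaker than that of emc. The cato summit was 13.5 ± 1.58 points weaker than that of da and 8.48 ± 1.07 points weaker than that of emc, and the ac summit was 30.4 ± 4.67 and 25.4 ± 4.25 points weaker. The strongest amos summit was 0.892 ± 0.0819 points weaker than that of da. Relative to emc its difference was -4.18 ± 0.616 points, and it was the only summit near a proneural gene stronger than the best of emc. The da minus emc difference was -5.07 ± 0.535 points. Every one of the 11 differences computed had the same sign in all 3 replicates. Each summit was chosen by its rank in a list made from these same replicates, so the shared sign is not independent support. An exact two-sided sign-flip permutation test of 3 replicates cannot give less than p = 0.25, which each of the 11 gave (0.25 after Benjamini-Hochberg adjustment), so no difference could pass a threshold of 0.05.

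**Figure D4:**
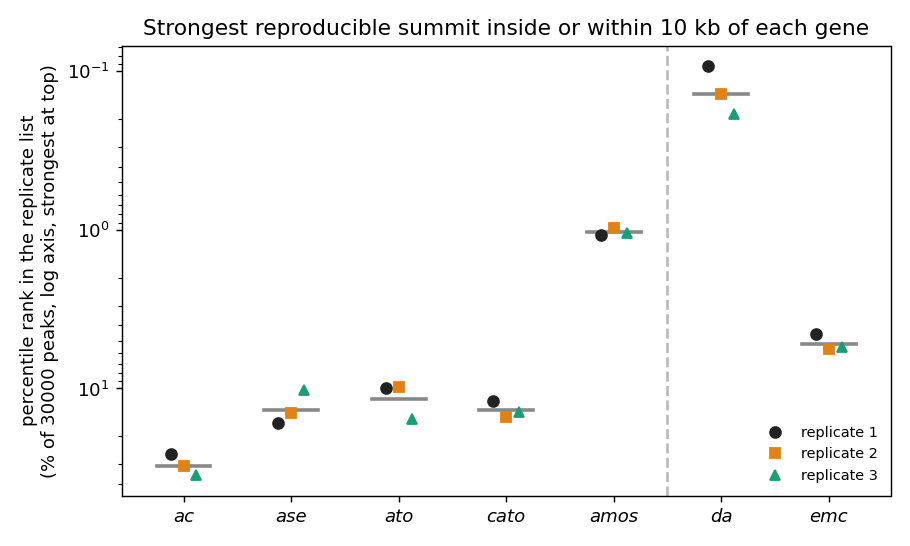
Percentile rank, on a log axis, of the best reproducible summit near each gene in the 3 replicate lists, with the proneural genes left of da and emc. The da peak is the strongest in all 3 replicates, amos is second at about 1%, and sc and l(1)sc have no reproducible summit.

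**Figure D5:**
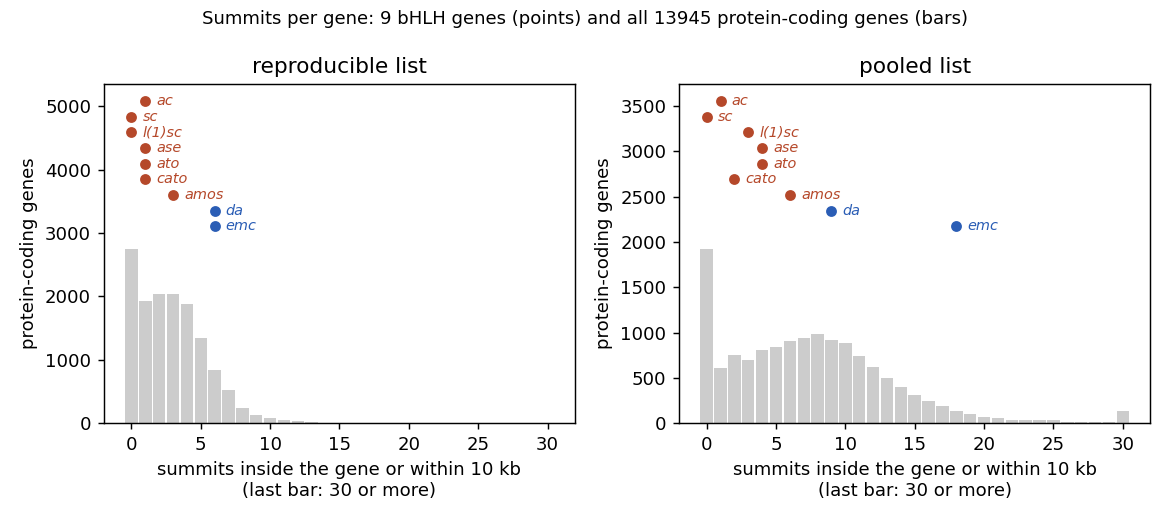
Number of reproducible summits (left) and pooled summits (right) inside each gene or within 10 kb, for the 9 bHLH genes as points at their count and for all 13945 protein-coding genes as bars. The heights of the points carry no value. In the reproducible list the proneural genes lie at 0 to 3 and da and emc at 6.

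Words were searched on both strands, up to 50 bp to either side of each of the 19 reproducible summits. GCCAT, the core sequence that Pho and Phol recognise, was present at 4 of 19, against 19.6% of all 10264 reproducible summits. Those 4 were the summits at CG9630 near ato, at Khc near cato, at CG10333 near amos and at the da start. The longer GCCATNTT, which contains GCCAT, was present at 1 of 19, the da start, against 6.63% of all summits. It lies at chr2L:10388118-10388125 on the strand opposite to da, 13 to 20 bp past the start. The E-box CANNTG, the kind of site bound by bHLH proteins, was present at 7 of 19 against 33.3%, and CAGCTG, a special case of it, at 0 of 19 against 4.07%. GAGAG, the core of the GAGA factor site, was present at 1 of 19 against 7.75%. Shares this close to the background, in so few summits, are a description and not a site or a cause.

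The word TATCGATA and its first 6 bases, TATCGA, were counted after the sequences had been seen. TATCGATA is part of the DNA replication-related element bound by DREF. It was present at 2 of 19 summits, those of gny near da and CG10333 near amos, against 3.11% of all. TATCGA, which it contains, was present at 4 of 19 against 1028 of 10264. The other summits with TATCGA were those at the da start and at CG10413 near amos. The upstream sequence of da shown above holds TATCGA at 3 places and TATCGATA at none. The share of G and C in the same stretch was 23.8% at the ase summit and 48.5% at the da start, against a median of 31.7% over all reproducible summits (quartiles 25.7% and 39.6%). These values do not separate the classes. The share was also 48.5% at the CG9630 summit near ato, 20.8% at the CG5096 summit near da and 33.7% at the strongest emc summit.

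Other genes of neural specification were examined by the same rule, in 4 lists chosen for their roles. Of 12 genes listed as E(spl) and Hairy class repressors, 3 were occupied, against 40.8% of all genes. The E(spl) genes of the list encode Notch-induced bHLH repressors that act against proneural genes, and the list also holds other repressors of this class, such as h and the clock gene cwo. The listed symbol side is today that of sidestep, an axon guidance gene with no bHLH domain, and without it 3 of 11 were occupied. With Sidpn, the bHLH gene once called side, in its place, 3 of 12 were. The 3 were E(spl)m3-HLH, E(spl)m7-HLH and E(spl)mdelta-HLH, with reproducible ranks of 242, 376 and 548 and mean percentiles of 0.838 ± 0.132, 1.28 ± 0.235 and 1.83 ± 0.0668 (SD, n = 3). Their summits lay 427, 377 and 358 bp from the starts, so none would be occupied at a limit of 200 bp. Of 13 other tissue-restricted bHLH activators, 5 were occupied (38.5%). The 3 strongest were Oli (rank 2548), net (rank 3625) and twi (rank 3657), the last a determinant of mesoderm.

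Of 12 genes that act in sensory precursors, 4 were occupied (33.3%). The strongest were chn (rank 874), which encodes a zinc-finger protein, neur (rank 1333), which encodes the ubiquitin ligase that activates Delta, and scrt (rank 1445), a neuronal zinc-finger gene. The chn peak had a summit within 250 bp in replicate 2 alone. Of 11 prepattern regulators, which set where proneural genes are active, 5 were occupied (45.5%). The strongest were pnr (rank 3684), a GATA factor gene, so (rank 4142), an eye homeobox gene, and wg (rank 5191), which encodes a Wnt ligand. Among the strongest 10264 peaks of each replicate, the occupied genes averaged 3 ± 0 of the repressors, 4.67 ± 0.577 of the bHLH activators, 5 ± 1 of the sensory precursor genes and 5.33 ± 0.577 of the prepattern regulators (SD, n = 3). At least 1 reproducible summit lay in the window of 5 of 7 proneural genes and of 48 of 48 genes in the 4 lists, against 80.3% of all genes. The median number was 1 for the proneural genes and 3, 3, 4 and 4 for the lists, against a median of 3 and an upper quartile of 4 for all genes. The lists were not matched to the proneural genes in length, and a longer gene has a wider window. The long gene ush had 17 summits. Windows of neighbouring genes, such as those of the E(spl) genes, overlap, so some summits are counted more than once. No list was set against the proneural genes by a test.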

How the data were processed

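Chromatin from 3 biological replicates of whole embryos was sheared by sonication (size range 200 to 800) and precipitated through GFP, per the labels. Peaks on dm6 were called by the authors on each replicate with a control, and on the pooled replicates, per the deposited readme notes. The reproducible list is the part of the pooled list kept by an irreproducible discovery rate filter. The control is not analysed here, and the sources used here do not give the aligner, the peak caller or that filter's limit. The deposited signal of a peak is the authors' value with no stated scale, and was used only to rank peaks within a list.

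Summits were placed on the release 6 genome with Ensembl release 115 annotation (Python 3.11.15, pandas 2.3.3, numpy 2.4.6). Peaks were matched between lists at 250 bp. The fixed list length hides how many sites were found in a replicate, and pooling may weight replicates unequally. The members and lists were chosen with earlier results of these data known. Named in the 4 lists are the 3 strongest occupied genes of each. The scripts were tested on simulated data. Alternatives for the window, start distance, match distance, list and word window, and leaving out each replicate, were computed.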

Additional observations from a re-analysis of the deposited data

How the results depend on the processing

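Of 89 alternatives computed for 19 results, 76 gave a value within the limit set for it and 13 moved. All 19 results are counts or percentiles, so none could reverse a sign. Changes within the limit could be sizeable, such as from 12 to 8 summits near da and emc with a window of 5 kb. The 7 summits near proneural genes became 0, 1 and 13 with windows of 2, 5 and 20 kb, and 20 with the pooled list. The 12 near da and emc became 3 and 24 with windows of 2 and 20 kb, 27 with the pooled list and 6 with the strongest 5132 reproducible peaks. Occupied partners became 2 with the pooled list. Summits with GCCATNTT became 0 with 51 bp. At 200 bp from a start, occupied genes became 0 for the E(spl) and Hairy class, 3 for the other bHLH activators and 3 for the prepattern regulators. All 7 proneural and 12 partner summits were found in every replicate, so leaving out a replicate could not change these counts. These settings are nonetheless among the 76. No proneural gene had a reproducible start peak, and that of da was found in every replicate, so occupancy could not change either. With each replicate left out in turn, 0 proneural genes and 1 partner were occupied. Mean percentiles then ranged over 28.3 to 33.0 for ac, 12.3 to 15.4 for ase, 9.83 to 12.7 for ato, 13.0 to 14.6 for cato, 1.01 to 1.06 for amos, 0.117 to 0.163 for da and 5.02 to 5.54 for emc. Peak ranks were compared within replicates, and no replicate block between groups applies because the samples form a single group. Both settings of the listed symbol side were chosen after seeing the data. Read depth is unknown, so a missing peak was not detectable in these lists rather than shown to be absent.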

Other observations

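The replicate 3 list held 10 summits in the ato window, against 1 in replicate 1 and 2 in replicate 2. Of the 10, 8 had no summit of another replicate within 250 bp (80.0%), against 17.3% of all replicate 3 summits. Some of the 10 peaks overlapped one another, so they mark fewer than 10 separate sites. Replicate 3 exceeded both other replicates by 8 or more summits, the excess seen at ato itself, at 15 of 13945 genes (0.108%). The same excess was seen at 16 genes for replicate 1 (0.115%) and at 3 for replicate 2 (0.0215%). The 10 percentiles in replicate 3 ranged over 15.5 to 83.2, and the strongest was the summit at CG9630 that all 3 replicates share. The summit 38 bp from the ato start is one of the 8.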
